A study of Mus musculus with 47 samples.

Results

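The genes described are 10 members of the endoplasmic reticulum (ER) folding and stress machinery: Hspa5, Manf, Pdia3, Pdia4, Pdia6, Creld2, Hsp90b1, Calr, Sdf2l1 and Ddit3. They were taken by name, with every probe set annotated to them, and are carried by 14 probe sets that give 24 sets of values over the 6 array tables of the series. In all, 12840 genes had a tested probe set, and 7 of the 10 members were among them, through 9 of the 25250 probe sets tested. RNA of mouse lung was hybridised to the A, B and C arrays of the Affymetrix murine U74 set, each in a first version and in version 2. Mice were sensitized on days 0 and 3 and challenged into the trachea on days 10 and 17, and were killed 24 h or 72 h after that. The ragweed groups, at 24 h and at 72 h, received protein of ragweed pollen, adjuvanted with alum when sensitized. The PBS groups, at 24 h and at 72 h, received PBS, and the labels name alum for ragweed alone. Strain, sex and age are not given in the sources used here. Each of the 4 groups has 2 samples, coded 1a and 1b. Nothing says that 1a and 1b are different mice, so every p-value reflects only how far these samples lie apart, and that spread may be technical.

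Secreted and membrane proteins fold in the ER with the help of chaperones and of enzymes that form disulfide bonds. When unfolded proteins accumulate there, the sensors IRE1, PERK and ATF6 start the unfolded protein response, which raises transcription of the chaperones and, when it lasts, of the death-associated factor Ddit3 (CHOP). In the lung, secretory epithelium, alveolar type II cells and plasma cells carry a large load of secreted protein. Whole lung was measured, so fewer cells of a type and less RNA per cell cannot be told apart.

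The ER stress response element (ERSE) is the promoter sequence through which ATF6, with the factor NF-Y, is known to act on chaperone genes. Its letters are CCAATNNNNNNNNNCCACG, a CCAAT box and a CCACG box held 9 bases apart. It was searched on both strands in promoter windows of 300 bases, from 250 before to 50 after the gene start, in RefSeq on GRCm38.p6. Windows were found for 9 of the 10 members. The element was present in 5 of these 9 windows (Hspa5, Pdia6, Creld2, Hsp90b1 and Calr), with 6 copies in all, and Hsp90b1 had 2 of them. Of all 32851 mouse windows, 39 (0.119%) held it. The element is known from chaperone genes, so these counts are a description and no test of the members. Pdia3, Pdia4, Sdf2l1 and Ddit3 had no match to these letters in the window, which says nothing about the factor itself. The 250 bases before the gene start are shown for Hspa5 and Pdia6, since these genes passed the test between the PBS times and have a window, with the element in capitals. They lie at chr2:34771840-34772089 and chr12:17266339-17266588, both on the plus strand.
Hspa5: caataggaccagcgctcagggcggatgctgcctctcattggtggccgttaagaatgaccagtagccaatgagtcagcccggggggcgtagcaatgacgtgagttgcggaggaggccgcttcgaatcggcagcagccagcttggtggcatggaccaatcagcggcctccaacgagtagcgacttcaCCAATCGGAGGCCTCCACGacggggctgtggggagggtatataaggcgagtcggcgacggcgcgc
Pdia6: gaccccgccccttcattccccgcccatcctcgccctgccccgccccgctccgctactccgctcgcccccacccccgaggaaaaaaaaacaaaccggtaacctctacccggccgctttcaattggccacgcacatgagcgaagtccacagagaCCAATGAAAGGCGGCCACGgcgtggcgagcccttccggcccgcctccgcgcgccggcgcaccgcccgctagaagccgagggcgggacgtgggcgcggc
The copies of the other members are shown alone, read along the strand that carries CCAAT first, with the boxes in capitals. The Creld2 copy lies at chr15:88819520-88819538 on the minus strand, the Hsp90b1 copies at chr10:86705638-86705656 on the minus strand and chr10:86705533-86705551 on the plus strand, and the Calr copy at chr8:84847075-84847093 on the plus strand.
Creld2: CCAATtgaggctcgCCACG
Hsp90b1, first copy: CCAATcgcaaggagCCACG
Hsp90b1, second copy: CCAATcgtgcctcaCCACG
Calr: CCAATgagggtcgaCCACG
The copies keep the same boxes around spacers of different letters. The Hspa5 element starts 65 bases before the gene start and the Pdia6 element 98 bases before it. The element runs in the direction of the gene in Hspa5, in Pdia6 and in the first Hsp90b1 copy, and against it in the other copies. The shorter UPRE core, TGACGTGG, was in none of the 9 windows and in 0.676% of all windows. The CRE core, TGACGT, which is contained in the UPRE core, was in the Hspa5 window alone among the members and in 7.51% of all windows.

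**Figure D1:**
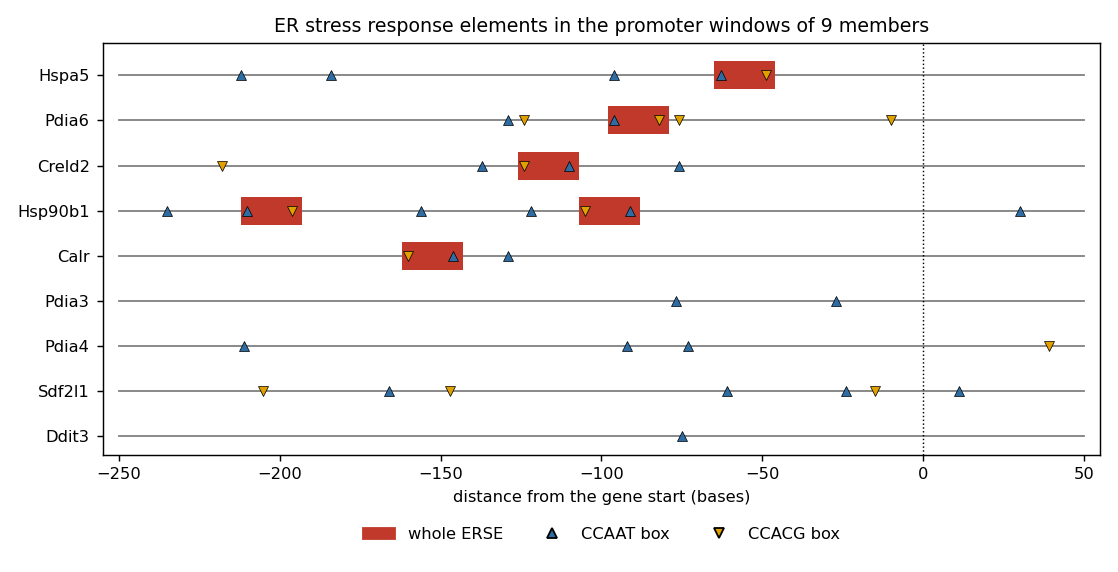
Map of the promoter windows of 9 members, with the distance from the gene start in bases on the horizontal axis and 1 line per gene. Red boxes are whole ERSE copies and triangles are single CCAAT and CCACG boxes on either strand; 5 genes carry a whole element, Hsp90b1 carries 2, and all 6 copies lie before the gene start.

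The values are array intensities after scaling. Values below a floor, the 40th percentile of the table, were raised to it for the tests; the floor was 292 for the first-version A table, which holds most members, and 356 for the version 2 B table, which holds Sdf2l1. Intensities of a gene are compared between samples within a probe set and never between probe sets. The sums over cell markers are an exception, since they add intensities of different probe sets, and the brightest weigh most. That was Scgb1a1 for club cells, Chil3 for macrophages and Bpifb1 for goblet cells. Such sums do not measure amounts of cells. Differences are log2 differences ± standard errors from limma, with n = 2 samples per group, and a probe set was called where its p-value, adjusted by Benjamini-Hochberg over all 25250 probe sets, was under 0.05. The authors had scaled the version 2 arrays, and of the first-version arrays those of ragweed lungs, to a trimmed mean of about 800. The PBS arrays of the first version were deposited unscaled, with trimmed means between 80.6 and 377. On the first-version tables the authors' scaling and the treatment therefore cannot be told apart, while both PBS times were left unscaled alike. Alveolar markers, 9 measured of 10 listed, had a sum from 154143 to 190784 over the samples. Much of it came from the type II cell marker Sftpc, at 50946 or more in all 8, and from Lamp3, at 41887 or more. Not every marker was bright: Sftpd lay above the floor in only 3 of 8 samples. Precision is limited by having 2 arrays per group.

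Of the 9 tested member probe sets, 8 of 6 genes lay above the floor in all 8 samples. The other, of Ddit3, lay above the floor only in both PBS 24 h samples and, barely, in 1 PBS 72 h sample. The filter had thus favoured a difference. Ddit3 is described by its values and left out of the counts and medians of the first-version fit below. All 8 were lower in PBS lungs at 72 h than in PBS lungs at 24 h, by 0.62 to 1.42 on the log2 scale, and 3 of them passed the test: Manf, Hspa5 and 1 of the 3 probe sets of Pdia6. Over all tested probe sets 0.281% were called in this comparison, and 0.0950% were called lower. The median difference was -1.08 for these 8 and 0 over all tested probe sets. In 7 of the 8 both PBS 72 h samples lay below both PBS 24 h samples, against 18.2% of all tested probe sets. An unadjusted p under 0.05 was reached by 7 of the 8, against 8.34% of all. A probe set of Creld2 outside this fit, 93545_at, was not lower: in a fit on all first-version A probe sets, chosen after seeing the data, it differed by 0.27 ± 0.30 (adjusted p = 0.882). The calls of Manf, Hspa5 and Pdia6 were kept in that fit (adjusted p 0.0115 to 0.0175).

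Hspa5, which encodes BiP, the main chaperone of the ER lumen and the protein that holds the stress sensors inactive, was carried by probe set 101955_at. Its intensity was 3857 and 3423 in the PBS 72 h lungs, against 7339 and 10114 in the PBS 24 h lungs. The 24 h samples lay apart from each other, and both stood well above the 72 h samples. The log2 difference was -1.25 ± 0.16 (2.37-fold, adjusted p = 0.0208). In ragweed lungs Hspa5 stood between the PBS groups, at 6109 and 5544 at 24 h and at 5061 and 4470 at 72 h.

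Manf, a secreted ER stress protein that protects cells, was carried by 95749_at and gave the largest difference among the members. It measured 1129 and 1076 in PBS lungs at 72 h, against 2601 and 3339 in PBS lungs at 24 h. The difference was -1.42 ± 0.16 (2.67-fold, adjusted p = 0.0121). The ragweed lungs had 2298 and 2054 at 24 h and 2280 and 1952 at 72 h, so the ragweed times overlapped and all 4 values lay between the PBS groups.

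Pdia6 is a protein disulfide isomerase, an enzyme that forms and rearranges disulfide bonds. Its leading probe set, 94208_at, read 1075 and 901 in PBS lungs at 72 h, against 2308 and 2171 in PBS lungs at 24 h. The difference was -1.19 ± 0.14 (2.27-fold, adjusted p = 0.0169). The ragweed values were 1757 and 1701 at 24 h and 1718 and 1750 at 72 h and lay between the PBS groups. The other probe sets of this gene were lower at 72 h as well but did not pass the test. For 94209_g_at the PBS values were 631 and 745 at 72 h, against 1424 in both samples at 24 h, a difference of -1.06 ± 0.20 (adjusted p = 0.130). For 94207_at they were 708 and 522 at 72 h, against 988 and 879 at 24 h, a difference of -0.62 ± 0.33 (adjusted p = 0.708). The 3 probe sets have the same target gene and are not separate members.

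**Figure D2:**
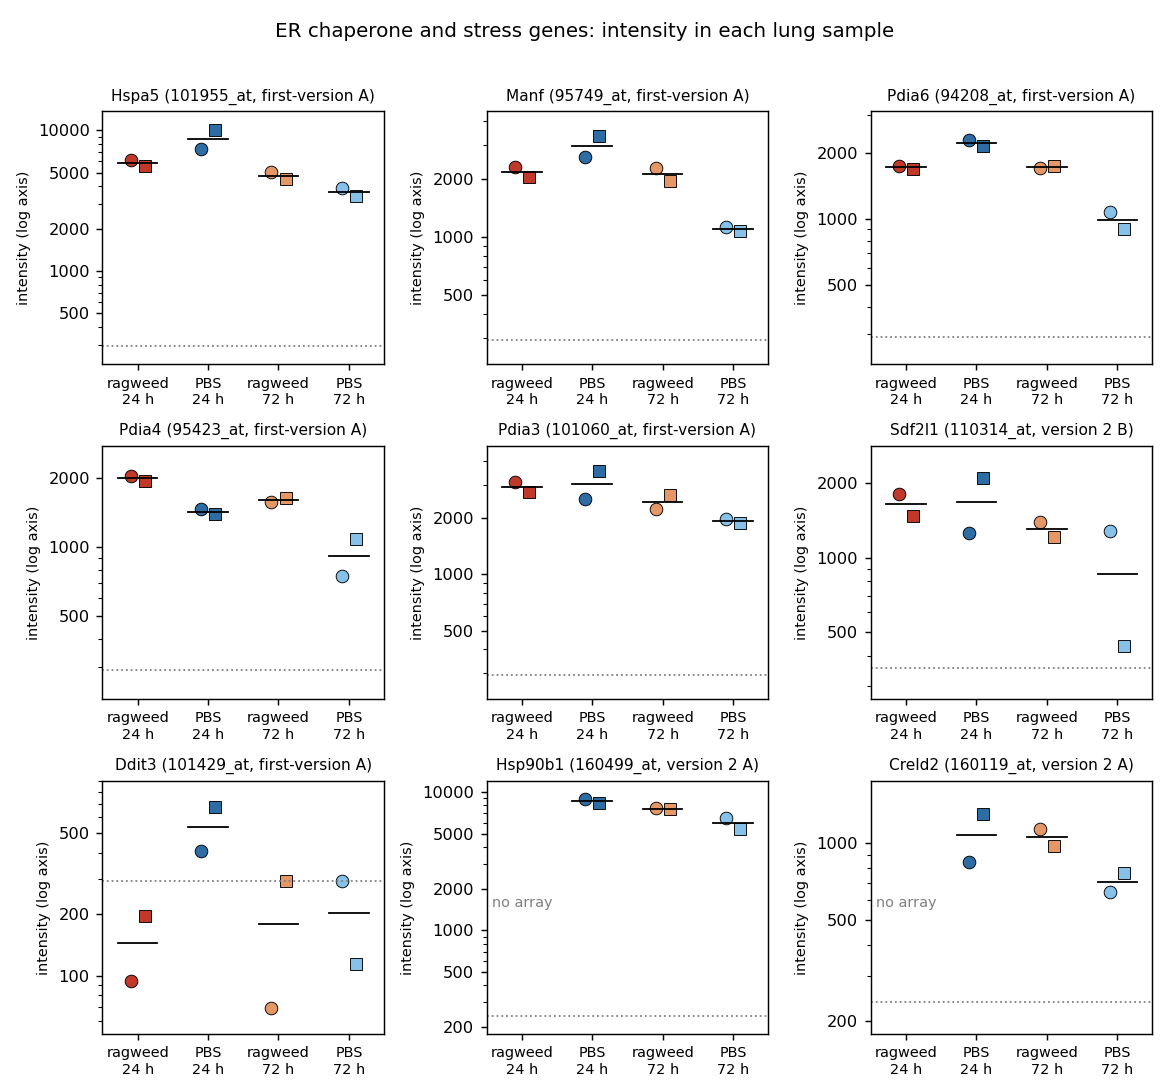
Intensity of 9 members in each lung sample, 1 panel per probe set, on a log axis; circles are 1a, squares 1b, short lines group means and the dotted line the floor of the table. For Hspa5, Manf and Pdia6 both PBS 24 h samples lie above, and both PBS 72 h samples below, all 4 ragweed samples; the version 2 A table has no ragweed 24 h arrays here.

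Pdia4 and Pdia3, protein disulfide isomerases of which Pdia3 (ERp57) works with the lectin chaperones on glycoproteins, were also lower in PBS lungs at 72 h, without passing the test. Pdia4 (95423_at) read 751 and 1085 in PBS lungs at 72 h, against 1463 and 1401 in PBS lungs at 24 h (log2 difference -0.66 ± 0.19, adjusted p = 0.353). Its ragweed values, 2044 and 1947 at 24 h and 1574 and 1633 at 72 h, were above all 4 PBS values, which no other leading probe set of a member showed. This held on first-version A, where the authors' scaling and the treatment cannot be told apart. On version 2 A the ragweed 72 h values of Pdia4, 2025 and 2029, lay within its PBS 24 h values, 1819 and 2301. There Pdia6 was above all 4 PBS values instead, with 2 of its probe sets. Its 94208_at read 1689 and 2105 in ragweed lungs at 72 h, against at most 1434 in PBS lungs. For 94209_g_at the values were 1219 and 1058, against at most 1030. Pdia3 (101060_at) read 1977 and 1869 in PBS lungs at 72 h, against 2506 and 3557 in PBS lungs at 24 h (-0.64 ± 0.18, adjusted p = 0.333). Its ragweed values were 3114 and 2729 at 24 h and 2234 and 2639 at 72 h, which overlap with the PBS 24 h values.

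Sdf2l1, a partner of the Hspa5 cochaperones in the ER lumen, was carried by 110314_at on the B array. It read 1284 and 437 in PBS lungs at 72 h, against 1253 and 2097 in PBS lungs at 24 h, so the PBS groups overlapped (-1.11 ± 0.45, adjusted p = 0.524). The 437 of sample 1b decides this value: without it the difference was -0.34. The ragweed values were 1817 and 1472 at 24 h and 1389 and 1213 at 72 h.

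Ddit3, the stress factor that acts in cell death and is normally low, was carried by 101429_at and was dim on the first-version arrays. It read 292 and 114 in PBS lungs at 72 h, against 409 and 671 in PBS lungs at 24 h, with 1 of the 72 h samples just above the floor of 292 (-0.84 ± 0.22, a difference on the log2 scale that the filter had favoured). The ragweed values were 94 and 196 at 24 h and 69 and 292 at 72 h, all at or under the floor.

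Creld2, Hsp90b1 and Calr lie outside the fit over all 4 groups. Creld2, a disulfide isomerase-like protein of the ER, has a different probe set on each A array version. On version 2 A, 160119_at read 1140 and 976 in ragweed lungs at 72 h, 641 and 766 in PBS lungs at 72 h, and 845 and 1304 in PBS lungs at 24 h. On first-version A, 93545_at read 2972 and 1469 in ragweed lungs at 24 h, 2028 and 2010 in ragweed lungs at 72 h, 2648 and 2439 in PBS lungs at 72 h, and 2525 and 1759 in PBS lungs at 24 h. In the fit on all first-version A probe sets it differed by -0.01 ± 0.30 between ragweed and PBS at 24 h and by -0.33 ± 0.30 at 72 h (adjusted p = 0.791). The probe sets disagree: only on version 2 A did both PBS 72 h samples lie below both PBS 24 h samples. Hsp90b1 (GRP94), the ER member of the HSP90 family, read 6425 and 5388 in PBS lungs at 72 h on version 2 A (160499_at), against 8883 and 8287 in PBS lungs at 24 h (-0.54 ± 0.12, adjusted p = 0.268). Its ragweed 72 h values, 7593 and 7488, lay between them. The first-version probe set of Hsp90b1, 100077_g_at, was at 186 or less on all 8 arrays, under its floor of 265. Calr, the calcium-binding lectin chaperone calreticulin, had 1 probe set, 93523_at, which was under the floor on all 8 first-version and all 6 version 2 arrays, so no difference could be measured.

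The 3 calls between the PBS times rested on few arrays. Manf kept an adjusted p under 0.05 when any 1 ragweed sample was left out (0.0391 to 0.0426), whereas Hspa5 (0.0633 to 0.0690) and Pdia6 (0.0622 to 0.0687) did not. Without PBS 24 h sample 1a, Hspa5 (0.0273) and Manf (0.0482) stayed called and Pdia6 (0.133) did not. Without PBS 24 h sample 1b or either PBS 72 h sample none of the 3 was called, with adjusted p from 0.0834 to 0.226. The sign held in each of these fits, with log2 differences from -1.48 to -1.02 for Hspa5, from -1.60 to -1.24 for Manf and from -1.31 to -1.06 for Pdia6.

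The other array version carries the same sample codes, with 6 A arrays and none of ragweed at 24 h. In a fit with the other version of each table, 0.152% of 26995 probe sets were called between the PBS times and 0.237% between ragweed and PBS at 72 h. Between the PBS times 8 of 10 member probe sets on version 2 A were lower at 72 h, with a median of -0.56, and 1 was called. That was Hspa5, with 4941 and 4838 in PBS lungs at 72 h, against 9649 and 9050 in PBS lungs at 24 h (-0.93 ± 0.11, adjusted p = 0.0446). Manf read 1600 and 1774 at 72 h, against 2813 and 3351 at 24 h, and did not pass (-0.87 ± 0.17, adjusted p = 0.208). Pdia4 read 967 and 1125 at 72 h, against 1819 and 2301 at 24 h (-0.97 ± 0.16, adjusted p = 0.147). The signs that turned belonged to probe sets of the disulfide isomerases. Pdia6 94208_at read 1398 and 1434 at 72 h, against 1017 and 1329 at 24 h (0.28 ± 0.18), so its call on the first-version array was not found with the same probe set ID on version 2. Pdia3 read 587 and 3795 at 72 h, against 908 and 648 at 24 h, and sample 1b alone sets its difference of 0.96 ± 0.75. Sdf2l1, on first-version B, read 499 and 1649 at 72 h, against 3528 and 2803 at 24 h (-1.79 ± 0.47, adjusted p = 0.280). Ddit3 lay above the floor on all 6 version 2 A arrays, with 562 and 571 at 72 h, against 740 and 887 at 24 h (-0.52 ± 0.24, adjusted p = 0.671).

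**Figure D3:**
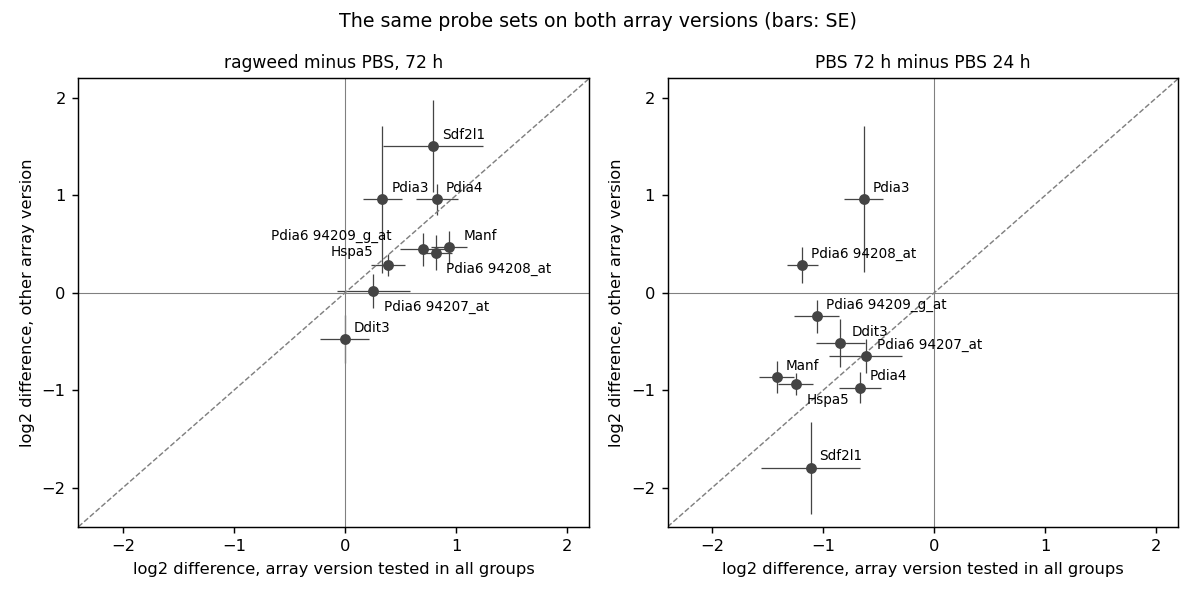
Log2 differences of the same probe sets on both array versions, with the version used for all groups on the horizontal axis and the other version on the vertical axis, for ragweed against PBS at 72 h on the left and PBS 72 h against PBS 24 h on the right; bars are standard errors and the dashed line marks equality. On the right, Hspa5, Manf, Pdia4, Sdf2l1 and Ddit3 are below 0 on both versions, whereas Pdia3 and Pdia6 94208_at lie above 0 on the other version.

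Other measures moved with the PBS time. Heart and skeletal muscle markers, of which 12 of 14 were measured, summed to between 33018 and 35577 in PBS lungs at 72 h, against 15570 to 16441 in PBS lungs at 24 h. All 12 were higher at 72 h, and 1 of them was called. Club cell markers (7 of 8 measured) summed to between 113908 and 123212 at 72 h, against 56746 to 59136 at 24 h, with 4 higher, 3 of them called, and 3 lower. Plasma and B cell markers (11 of 15 measured) summed to between 16924 and 17416 at 72 h, against 9160 to 9867 at 24 h. Of these 11, 6 were higher and 5 lower, and Ighm and Jchain were called higher; Ighm alone read 9835 and 10114 at 72 h, against 4240 and 4245 at 24 h. The 3' to 5' ratio of the actin control probe sets, a sign of RNA integrity and labelling, was 0.189 and 0.198 in PBS lungs at 72 h on version 2 A, against 0.535 and 0.437 in PBS lungs at 24 h. On first-version A the ratio overlapped between the PBS times, with 0.798 and 0.968 at 72 h, against 0.947 and 0.914 at 24 h. On version 2 B, where Sdf2l1 was tested, it was higher at 72 h, with 0.919 and 0.813, against 0.708 and 0.465 at 24 h. The part of tissue composition and RNA quality in the ER results was not tested.

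Ragweed against PBS at 24 h gave no call among the members. By limma 0 of the 8 probe sets passed, and 4 had an unadjusted p under 0.05, 1 of them higher and 3 lower in ragweed lungs. Over all tested probe sets 0.230% were called and 8.67% had an unadjusted p under 0.05. Their median difference was -0.05, with a range from -0.57 to 0.48. For 3 probe sets (Hspa5, Manf and Pdia6 94208_at) both ragweed samples lay below both PBS samples, which 17.8% of all tested probe sets did. With the sample values given above, the differences at 24 h were -0.57 ± 0.16 for Hspa5 (adjusted p = 0.304), -0.44 ± 0.16 for Manf (adjusted p = 0.471) and -0.37 ± 0.14 for Pdia6 (adjusted p = 0.506). Ddit3 had both ragweed samples at or under the floor and both PBS samples above it; since it passed the filter through those PBS samples, no test is given. Pdia4 went the other way (0.48 ± 0.19, adjusted p = 0.530), with both ragweed samples above both PBS samples, which 16.3% of all tested probe sets showed. Pdia3 (-0.03 ± 0.18) and Sdf2l1 (0.01 ± 0.45) overlapped between the groups. Markers of other cells also moved. Alternatively activated macrophage markers (8 of 9 measured, 8 higher, 6 called) summed to between 67456 and 73683 in ragweed lungs at 24 h, against 4501 to 4652 in PBS lungs. The filter had favoured the calls of Arg1 and Ccl24, which passed it through ragweed samples. Arg1 was under the floor in every PBS sample. Ccl24 and Ccl8 were under it in both PBS 24 h samples. Plasma and B cell markers (6 higher, 5 lower, 2 called) summed to between 19841 and 19939, against 9160 to 9867 in PBS lungs. Their part in the ER values was not tested.

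Ragweed against PBS at 72 h gave no call either, with all 8 differences above 0. By limma 0 of the 8 passed and 5 had an unadjusted p under 0.05, all of them higher. Over all tested probe sets 0.527% were called and 9.63% had an unadjusted p under 0.05. Their median difference was 0.75, and for 6 probe sets of 5 genes both ragweed samples lay above both PBS samples, against 18.0% of all. Manf (0.94 ± 0.16, adjusted p = 0.0596) and Pdia6 94208_at (0.82 ± 0.14, adjusted p = 0.0657) came nearest to the threshold. They passed where p-values were adjusted within the A table alone. Pdia4 differed by 0.83 ± 0.19 (adjusted p = 0.160), Hspa5 by 0.39 ± 0.16 (adjusted p = 0.476) and Pdia3 by 0.34 ± 0.18 (adjusted p = 0.630). Sdf2l1 differed by 0.79 ± 0.45 (adjusted p = 0.643), or by 0.02 without PBS 72 h sample 1b. Ddit3, at or near the floor in both groups, differed by 0.00 ± 0.22. Creld2 93545_at was at -0.33, as given above. On version 2 A, 9 of 10 member probe sets were higher in ragweed lungs at 72 h, with a median of 0.43 and no call. Pdia4 read 2025 and 2029 in ragweed lungs there, against 967 and 1125 in PBS lungs (0.96 ± 0.16, adjusted p = 0.100). Hsp90b1 differed by 0.36 ± 0.12 (adjusted p = 0.409), Creld2 by 0.59 ± 0.25 (adjusted p = 0.495) and Ddit3, the exception, by -0.47 ± 0.24 (adjusted p = 0.596). Plasma and B cell markers (11 of 15 measured, 9 higher, 4 called) summed to between 45128 and 52165 in ragweed lungs at 72 h, against 16924 to 17416 in PBS lungs. Alternatively activated macrophage markers (8 higher, 4 called) summed to between 87908 and 89348, against 7369 to 8951 in PBS lungs. Heart and skeletal muscle markers (12 of 14 measured, 11 lower, 2 called) summed to between 19702 and 20244, against 33018 to 35577 in PBS lungs. The actin 3' to 5' ratio on version 2 A was 0.801 and 0.578 in ragweed lungs at 72 h, against 0.189 and 0.198 in PBS lungs. The part of these measures in the 72 h differences was not tested.

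**Figure D4:**
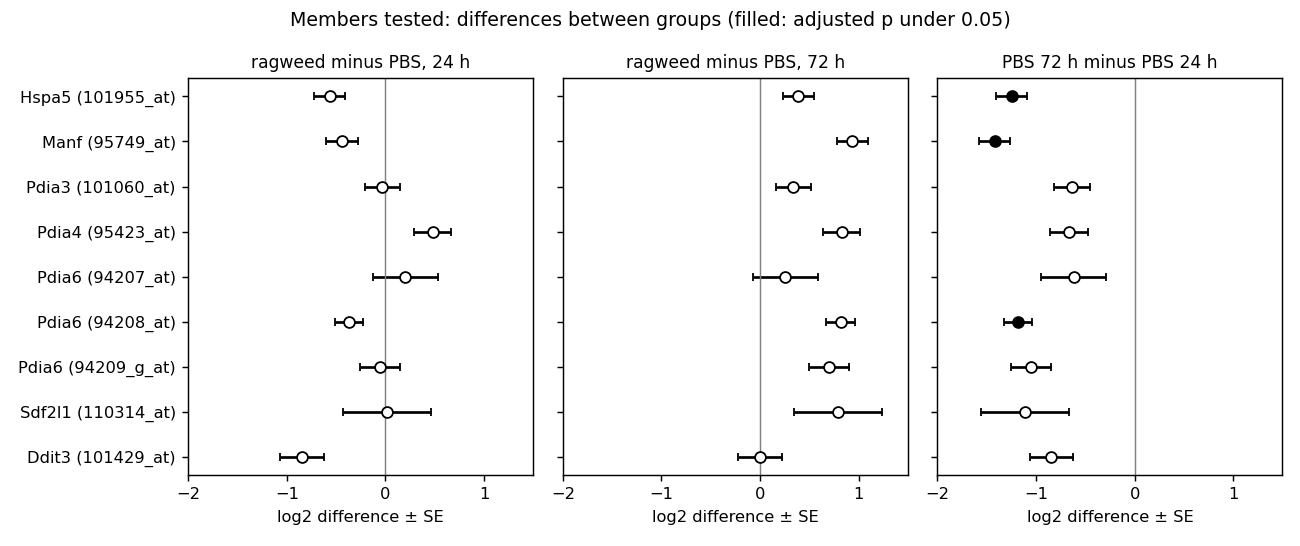
Log2 differences of the 9 tested member probe sets, with standard errors, for ragweed minus PBS at 24 h, ragweed minus PBS at 72 h and PBS 72 h minus PBS 24 h. Filled points passed the test (Manf, Hspa5 and Pdia6 94208_at between the PBS times). All 9 points of the right panel are below 0, including Ddit3, which passed the filter through PBS samples alone. The left panel runs from -0.57 to 0.48 without Ddit3.

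The ragweed comparisons at 24 h and at 72 h each use their own PBS group, and the comparison of PBS times shares its samples with both. Set against the PBS lungs of the other time, the ragweed lungs gave values of opposite sign at both times for Hspa5, Manf, Pdia3 and the leading probe set of Pdia6. Ragweed at 24 h against PBS at 72 h gave 0.68 ± 0.16 for Hspa5, 0.98 ± 0.16 for Manf and 0.81 ± 0.14 for Pdia6. Ragweed at 72 h against PBS at 24 h gave -0.86 ± 0.16 for Hspa5, -0.48 ± 0.16 for Manf and -0.37 ± 0.14 for Pdia6. Pdia4 alone among the leading probe sets stayed above 0 with either PBS group at both times, at 1.14 ± 0.19 for ragweed 24 h against PBS 72 h and 0.16 ± 0.19 for ragweed 72 h against PBS 24 h. None of these differences was called. On version 2 A the Pdia4 values of ragweed at 72 h and PBS at 24 h overlapped, whereas those of Pdia6 94208_at did not, as given above.

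Whether the ragweed difference itself changed between the times was tested as an interaction, the difference at 72 h minus that at 24 h. All 8 member probe sets above the floor in every sample were positive, with a median of 0.77, but limma called 0 of them, and 4 had an unadjusted p under 0.05. Ddit3 is not counted, since its ragweed samples lay at or under the floor and the PBS samples alone set its value; Creld2 93545_at was negative in the fit on all first-version A probe sets (-0.32 ± 0.43). Over all tested probe sets 0.0356% were called and 7.35% had an unadjusted p under 0.05. Manf gave 1.38 ± 0.23 (adjusted p = 0.179), Pdia6 94208_at 1.19 ± 0.20 (adjusted p = 0.198) and Hspa5 0.95 ± 0.22 (adjusted p = 0.401).

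No member was called between the ragweed times. By limma 0 of the 8 member probe sets were called between ragweed at 72 h and ragweed at 24 h, and 0 had an unadjusted p under 0.05, against 0.305% called and 10.6% under 0.05 among all. The differences ran from -0.56 (Pdia6 94207_at) to 0.00 (Pdia6 94208_at), with a median of -0.29, and 7 of the 8 were negative. For 4 probe sets (Hspa5, Pdia3, Pdia4 and Sdf2l1) both ragweed 72 h samples lay below both ragweed 24 h samples, against 18% of all tested probe sets. Manf differed by -0.04 ± 0.16 and Hspa5 by -0.29 ± 0.16.

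The leading probe sets of the 7 tested members were set beside each other over the 8 samples. Ddit3 is among them, although the filter had favoured it and only 3 of its 8 values lay above the floor. The profile, the pairs and the likeness below were not made without it. The mean of their standardized log2 values was 0.48 and 0.21 in ragweed lungs at 24 h and -0.02 and -0.04 in ragweed lungs at 72 h. In PBS lungs it was -1.02 and -1.37 at 72 h, against 0.48 and 1.27 at 24 h. Among the 21 pairs of members Pearson's r over the 8 samples had a median of 0.73. It ran from -0.01 for Pdia4 with Ddit3, most of whose values were raised to the floor, to 0.96 for Manf with Pdia6. The lowest r of a pair without Ddit3 was 0.42, for Pdia4 with Sdf2l1. The points share arrays and scaling, so these are descriptions. The genes most like the mean profile, of 12833 compared over the same 8 samples, were Rpl13a (r = 0.98), Ccn2 (0.98), Spaca9 (0.97), Gclc (0.97), Insm1 (0.97) and Hsp90aa1 (0.95). They were picked for a profile that itself sets the PBS times apart. A difference between the PBS times is therefore built into the choice, and a call there is no separate support. Of these 6, Gclc, the catalytic subunit of the enzyme that limits glutathione synthesis, was called between the PBS times, with 748 and 627 at 72 h, against 1615 and 2033 at 24 h (log2 difference -1.40, adjusted p = 0.0300). Gclc lost this call by limma without the filter (adjusted p = 0.0843) and without the mean-variance trend (0.0728). It was called on version 2 A too (-1.68, adjusted p = 0.0193), but not with any 1 of the 8 samples left out (0.0836 to 0.217). Hsp90aa1, the cytosolic relative of Hsp90b1, read 4484 and 3965 at 72 h, against 5201 and 6466 at 24 h (-0.46, adjusted p = 0.321).

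The rest of the pathway was given by lists of genes with 1 tested probe set each. Of the sensors and transcription factors of the unfolded protein response, 17 of 24 were measured, and 0 were called in any of the 5 comparisons by limma. Between the PBS times 14 of these 17 were lower at 72 h, with a median of -0.32 against 0.00 over all genes. Atf4, the factor that PERK signalling translates, read 2277 and 2922 in PBS lungs at 72 h, against 3447 and 3851 in PBS lungs at 24 h (-0.50 ± 0.14, adjusted p = 0.323). Atf3, a stress-induced relative, differed by -0.73 ± 0.23 (adjusted p = 0.417). Xbp1, the factor whose mRNA IRE1 splices, differed by 0.22 ± 0.19 (adjusted p = 0.821), and these probe sets do not tell spliced from unspliced mRNA as far as the annotation says.

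Of 55 other ER chaperones, cochaperones and folding enzymes, 48 were measured, and between the PBS times 35 of them were lower at 72 h with a median of -0.19 and 0 calls. Dnajc3, a cochaperone of Hspa5 that also restrains PERK, read 1012 and 865 at 72 h, against 1562 and 1827 at 24 h (-0.85 ± 0.20, adjusted p = 0.242). Dnajb9 (-0.32 ± 0.32) and Dnajb11 (-0.32 ± 0.25), further cochaperones of Hspa5, differed by little more than their errors. Canx, the membrane-bound relative of Calr (0.05 ± 0.21), and P4hb, the classical protein disulfide isomerase (0.33 ± 0.24), were not lower, and P4hb lay under the floor on 3 of 8 arrays. Hyou1, a nucleotide exchange factor for Hspa5, read 3476 and 1938 at 72 h, against 3811 and 2971 at 24 h (-0.37 ± 0.26). In ragweed lungs 1 gene of this list passed the test, which the filter had favoured. Agr2, a disulfide isomerase of mucus-secreting cells that is known for mucin folding, rose in ragweed lungs at both times. Its probe set, 101075_f_at, is of a class that can match related transcripts. It read 2148 and 1940 in ragweed lungs at 24 h, against 253 and 381 in PBS lungs (2.61 ± 0.26, adjusted p = 0.00528). At 72 h it read 1060 and 914 in ragweed lungs, against 220.0 and 56 in PBS lungs (1.76 ± 0.26, adjusted p = 0.0298), with both PBS samples under the floor, so the change was at least 3.38-fold. Left out in turn, either ragweed 24 h sample ended the call at 24 h (adjusted p 0.0662 and 0.0700), as did a floor at the 20th percentile (0.0522). Any ragweed or PBS 72 h sample ended that at 72 h (0.0793 to 0.195), as did no filter (0.0627) and the other array version (0.0937). Goblet and mucous cell markers (9 of 10 measured) summed to between 52555 and 63300 in ragweed lungs at 24 h, against 7025 to 7171 in PBS lungs. Of these 9, 8 were higher, 5 of them called, and 1 was lower. Bpifb1 alone read 38206 and 29824 in ragweed lungs at 24 h, against 2975 and 3413 in PBS lungs. At 72 h the markers (8 higher, 5 called) summed to between 43614 and 44033 in ragweed lungs, against 12310 to 14004 in PBS lungs. The part of these markers in the Agr2 result was not tested.

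ER-associated degradation, which removes misfolded proteins, had 23 of 27 genes measured and 0 calls in any of the 5 comparisons, with a median of -0.19 between the PBS times. Herpud1, a stress-induced member of that system, read 2197 and 1728 in PBS lungs at 72 h, against 2259 and 3120 in PBS lungs at 24 h (-0.45 ± 0.18, adjusted p = 0.566). Translocation, glycosylation and the early secretory pathway had 42 of 49 genes measured, 0 calls in the 5 comparisons and a median of -0.10 between the PBS times. Of 35 cytosolic and mitochondrial heat shock proteins 26 were measured, and 1 was called. Hspd1, the mitochondrial chaperonin HSP60, fell in ragweed lungs at 24 h, to 2586 and 3134, against 6728 and 7392 in PBS lungs (-1.31 ± 0.17, adjusted p = 0.0306). The call was lost without any 1 ragweed or PBS 24 h sample (0.0938 to 0.248), and against the PBS lungs of 72 h the difference was -0.26. Between the PBS times it read 4056 and 2853 at 72 h, against the same 6728 and 7392 at 24 h (-1.05 ± 0.17, adjusted p = 0.0704). The median of this list between the PBS times was -0.12.

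**Figure D5:**
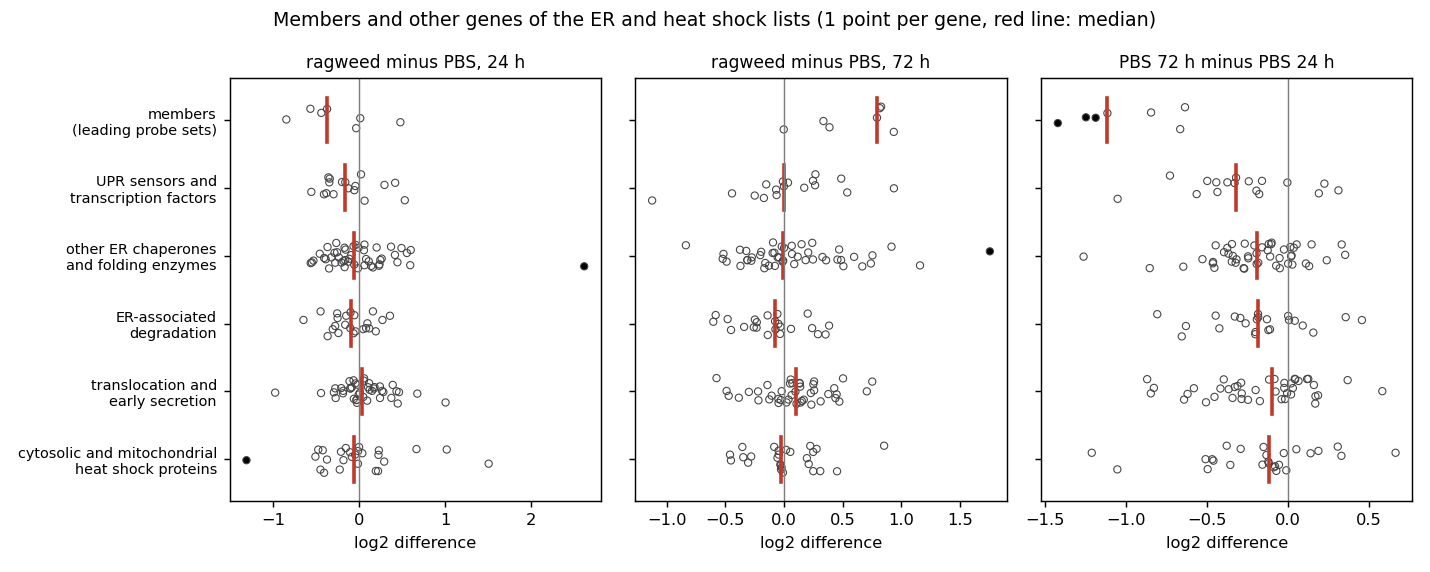
Log2 differences of the 7 tested members, by their leading probe sets, and of the genes of 5 lists, for ragweed minus PBS at 24 h, ragweed minus PBS at 72 h and PBS 72 h minus PBS 24 h; each point is a gene, filled where called, and red lines are medians. Between the PBS times the medians of the 5 lists lie between -0.32 and -0.10. In ragweed lungs Agr2, which passed the filter through those lungs, is the called gene on the right of the other ER chaperones at both times. The member points and medians include Ddit3.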

How the data were processed

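The deposited tables give, for mouse lung, an intensity on a linear scale for each probe set of each array. Which software made them is not given in the sources used. An additional ragweed 24 h array equalled the 1a array divided by a constant and was not used, which leaves 46 distinct arrays of 47. The first-version A table was restricted to 9977 probe set IDs shared with version 2 A. Its deposited intensity values were then scaled to a 2% trimmed mean of 800, taken to log2 and quantile normalized on that scale. Version 2 B and C kept the authors' scale and were taken to log2. Log2 values under the 40th percentile of a table were then raised to it. Probe sets above this floor on at least 2 arrays were tested (6896 on A, 9190 on B, 9164 on C). A linear model was fitted to each table by limma 3.58.1 in R 4.3.3 (1 mean per group, 8 samples, 4 residual degrees of freedom, eBayes with trend), and p-values were pooled over the tables for Benjamini-Hochberg adjustment. The fit was tested on simulated data. Replicate arrays correlated with r from 0.899 to 0.922 on A, 0.802 to 0.860 on B and 0.727 to 0.882 on C, and standard errors of a group difference (log2) had medians of 0.23 on A, 0.32 on B and 0.45 on C. Values at the floor add no spread, which can make standard errors there too low.

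Symbols were taken from the platform annotation, updated by gene ID: on first-version A, 10276 probe sets had 1 symbol, 363 several and 1949 none. A gene is represented by its leading probe set, the brightest tested one, A before B before C. Named were all member probe sets, at most 4 called genes per list and comparison, 12 ER and stress genes whether called or not (Trib3 had no tested probe set), and the 6 genes most like the members. The members, lists and tests were chosen with earlier results of these data known. The codes 1a and 1b did not pair the samples: deviations from group means correlated between -0.08 and 0.04 over 18 pairs of groups (6 per table). Alternatives were another floor, filter, normalization, array version, PBS reference, adjustment, a replicate block and leaving out each sample; the use of all first-version A probe sets was added after seeing the data.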

Additional observations from a re-analysis of the deposited data

How the results depend on the processing

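Of 605 alternative values for the members' leading probe sets, 554 kept their sign and their side of the threshold, 24 lost a call, 2 gained one and 25 turned sign. Only 3 differences were called in the main fit, and all 24 losses were theirs. Most of the 554 had no call to lose, so this count does not measure how stable the calls are. The 3 calls between the PBS times became 1 without the filter on dim probe sets (Pdia6), 1 on the other array version (Hspa5), 0 without the mean-variance trend and 0 to 2 with 1 sample left out. With p-values adjusted separately for A, B and C arrays, 2 member probe sets were called at 72 h, Manf (0.94) and Pdia6 (0.82). Against the PBS of the other time the 24 h difference turned to 0.68 for Hspa5, 0.98 for Manf, 0.60 for Pdia3 and 0.81 for Pdia6, and the 72 h difference to -0.86 for Hspa5, -0.48 for Manf, -0.30 for Pdia3, -0.37 for Pdia6 and -0.32 for Sdf2l1. Against PBS of both times it turned to 0.057 for Hspa5, 0.27 for Manf, 0.28 for Pdia3 and 0.22 for Pdia6 at 24 h, and to -0.23 for Hspa5 at 72 h. On the other array version the PBS times gave 0.96 for Pdia3 and 0.28 for Pdia6, and Sdf2l1 gave -0.10 at 24 h. With 1 sample left out, differences near 0 took both signs: from -0.29 to 0.22 for Pdia3 and from -0.36 to 0.38 for Sdf2l1 at 24 h, and between the ragweed times from -0.15 to 0.070 for Manf and from -0.019 to 0.028 for Pdia6. The cause of these turns was not tested. The replicate block (1a and 1b) kept all 3 member calls but not those of Agr2 at 72 h (adjusted p = 0.0687), Hspd1 at 24 h (0.0551) and Gclc (0.0544); over all probe sets it changed 1 count by over 1.5 times, to 47 between the ragweed times. Over all probe sets 58 were called for ragweed against PBS at 24 h, with 121 without the filter, 6 on the other version, 91 within tables and 23 to 42 with 1 sample left out. At 72 h 133 were called, with 64 on the other version, 236 against the other PBS, 238 against both, 80 without the trend and 25 to 87 with 1 sample left out. Between the PBS times 71 were called, with 118 without the filter, 41 on the other version, 32 without the trend and 2 to 39 with 1 sample left out. Between the ragweed times 77 were called, with 42 at a lower floor, 152 without the filter, 0 on the other version (no A arrays there), 127 within tables, 43 without the trend and 2 to 47 with 1 sample left out. For the interaction 9 were called, with 123 without the filter, 0 on the other version, 23 within tables, 4 without the trend and 0 to 10 with 1 sample left out. Calr on every array, and Ddit3 in ragweed lungs on first-version A, lay at or under the floor, which limits what can be measured.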
